A study of Mus musculus with 8 samples.

Results

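Lysosomal enzymes and membrane proteins were followed as a list of 42 named genes, chosen with earlier results of these data known. Each gene was read from the brightest of its probes on Illumina Mouse Ref-8 bead arrays. A probe named in the platform annotation was at hand for 40 of the 42 genes, and all 40 passed the filter on dim probes among 9875 genes tested in all. Intensities of Npc1 and Cd68 were not analysed here. The list holds 12 proteases (the cathepsins, Lgmn and Tpp1), 11 glycosidases and related sugar-degrading enzymes, 9 lipid and other hydrolases with their activators, 9 membrane proteins and the transcription factor Tfeb.

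The samples were peritoneal macrophages of C57BL/6 mice, plated overnight in medium with L929 supernatant as a source of M-CSF, after which floating cells were removed. The 4 groups were Fcg-chain KO cells given recombinant IL-4 at 10 ng/ml for 6 h (KO with IL-4), WT cells given the same (WT with IL-4), unstimulated Fcg-chain KO cells and unstimulated WT cells, with 2 arrays each. All groups shared the strain label, the plating and the M-CSF source. The labels give no age and tie no array to an animal, so each p-value rests only on the spread of duplicates, and that spread can be technical. In the limma fit the spread was pooled over the 4 groups and drawn toward that of genes of similar intensity.

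Lysosomes are acidic organelles that break down proteins, glycans and lipids taken up or recycled by the cell, and macrophages carry many of them to digest engulfed particles. Their soluble hydrolases are tagged with mannose 6-phosphate in the Golgi and sorted by receptors, while membrane glycoproteins line the organelle and channels and carriers move ions, lipids and breakdown products. Many lysosomal genes carry E-boxes near their start that are bound by TFEB and its relatives, factors of the MiT/TFE family that raise lysosomal gene expression when nutrient signalling falls.

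Values are deposited intensities on a linear scale, and differences are in log2 units of the intensity after background correction. The gamma chain gene itself, Fcer1g, had an intensity of 91.8 and 86.6 in KO with IL-4, 9915 and 10170.2 in WT with IL-4, 85.7 and 87.5 in unstimulated KO, and 12988 on both unstimulated WT arrays, so that each KO array lay below the background threshold of 93.1 to 93.3. Over the 9875 genes, Pearson's r was 0.994 to 0.995 within pairs of duplicates and 0.970 to 0.988 between groups, a description in which genes are no independent replicates. The macrophage markers Adgre1, Cd14, Lyz2, Itgam and Mertk were above background on all 8 arrays. So were Cd79a and Cd79b of B cells, Cd3e of T cells and Cpa3, Mcpt4, Tpsb2 and Cma1 of mast cells. The same held for S100a8 of neutrophils and for Clec4b1, Irf4 and H2-Ab1 of dendritic cells and small peritoneal macrophages. Of the same or other marker lists, S100a9, Flt3, Ccr2, Cd8a, Ms4a2 and Siglecf were above background on 0 arrays. Of the 40 members, 36 were above background on all 8 arrays and 0 lie on chromosome 1, which holds Fcer1g.

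The RefSeq promoter windows of the members (GRCm38.p6, 250 bases before to 50 after a transcription start) were searched for the E-box core CACGTG, which reads the same on both strands. A gene was counted if any of its windows held the core. Of 38 members with a window, which include Cd68, 13 held it (34.2%). It was held by 933 of 8077 tested genes (11.6%) and 2187 of all 27025 genes with a window (8.09%). The extended form TCACGTGA, which contains the core, was found in 5 members (13.2%), against 2.06% of tested genes and 0.974% of all windows. No window was at hand for Asah1, Ctsb, Ctsh and Npc1. A match describes the letters of the window and shows no binding. Windows are printed 5′ to 3′ for 5 members with a core whose intensity passed at least 1 test below, with the core, or the extended form, in capitals. They are Lamp1 (chr8:13158911-13159210, + strand), Mcoln1 (chr8:3500269-3500568, + strand), Glb1 (chr9:114400828-114401127, + strand), Cln3 at its second listed start (chr7:126583187-126583486, - strand) and Lgmn at its second listed start (chr12:102439043-102439342, - strand).

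Lamp1: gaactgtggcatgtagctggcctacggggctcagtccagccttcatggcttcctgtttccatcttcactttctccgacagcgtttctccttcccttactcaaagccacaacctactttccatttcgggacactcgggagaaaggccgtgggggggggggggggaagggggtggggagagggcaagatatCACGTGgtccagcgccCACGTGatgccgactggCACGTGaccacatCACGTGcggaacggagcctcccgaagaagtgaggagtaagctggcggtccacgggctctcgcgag
Mcoln1: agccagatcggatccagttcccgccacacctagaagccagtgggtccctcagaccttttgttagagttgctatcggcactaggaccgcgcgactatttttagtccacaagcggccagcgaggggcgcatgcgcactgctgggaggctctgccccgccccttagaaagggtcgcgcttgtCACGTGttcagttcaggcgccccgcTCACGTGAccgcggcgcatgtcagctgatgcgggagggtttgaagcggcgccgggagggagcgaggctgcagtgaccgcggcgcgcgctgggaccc
Glb1: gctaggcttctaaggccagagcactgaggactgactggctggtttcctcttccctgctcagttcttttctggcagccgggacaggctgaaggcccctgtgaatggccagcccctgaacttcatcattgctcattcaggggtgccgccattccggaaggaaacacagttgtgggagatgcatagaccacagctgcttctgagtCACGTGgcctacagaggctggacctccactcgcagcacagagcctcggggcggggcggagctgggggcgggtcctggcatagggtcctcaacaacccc
Cln3: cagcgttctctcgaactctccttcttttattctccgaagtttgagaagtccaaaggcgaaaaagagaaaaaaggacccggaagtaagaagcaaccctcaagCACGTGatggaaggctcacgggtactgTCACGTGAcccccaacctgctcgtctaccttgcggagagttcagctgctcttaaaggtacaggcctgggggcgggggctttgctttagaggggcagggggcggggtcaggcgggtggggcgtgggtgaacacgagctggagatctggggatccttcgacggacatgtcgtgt
Lgmn: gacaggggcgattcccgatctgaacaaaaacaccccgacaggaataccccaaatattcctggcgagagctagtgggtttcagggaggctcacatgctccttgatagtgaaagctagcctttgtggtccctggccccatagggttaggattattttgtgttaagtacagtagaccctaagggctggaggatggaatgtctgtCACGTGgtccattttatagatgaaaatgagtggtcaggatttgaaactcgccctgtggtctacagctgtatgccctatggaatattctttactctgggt

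The Lamp1 window held 4 cores, at -61, -45, -28 and -15 bases from the start, and Mcoln1 held 2, of which the one nearer to the start has the extended form. Glb1 held 1 core. For Cln3 and Lgmn the first listed start had none. Ctsa (second listed start), Ctsd and Gla also held the extended form, and Ctsf, Ctsl, Gaa, Naglu and Sgsh held the core alone. Of the 13 tested members with a core, 3 were higher in unstimulated KO than in unstimulated WT and 0 lower, with a median difference of 0.32. Of the 24 without it, 6 were higher and 3 lower, with a median of 0.19. Among all genes tested 2.62% were higher and 2.61% lower in that comparison. In KO, IL-4 lowered 3 of 13 with the core and 6 of 24 without it, against 9.85% of all genes, and the difference between members with and without a core was not tested.

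**Figure D1:**
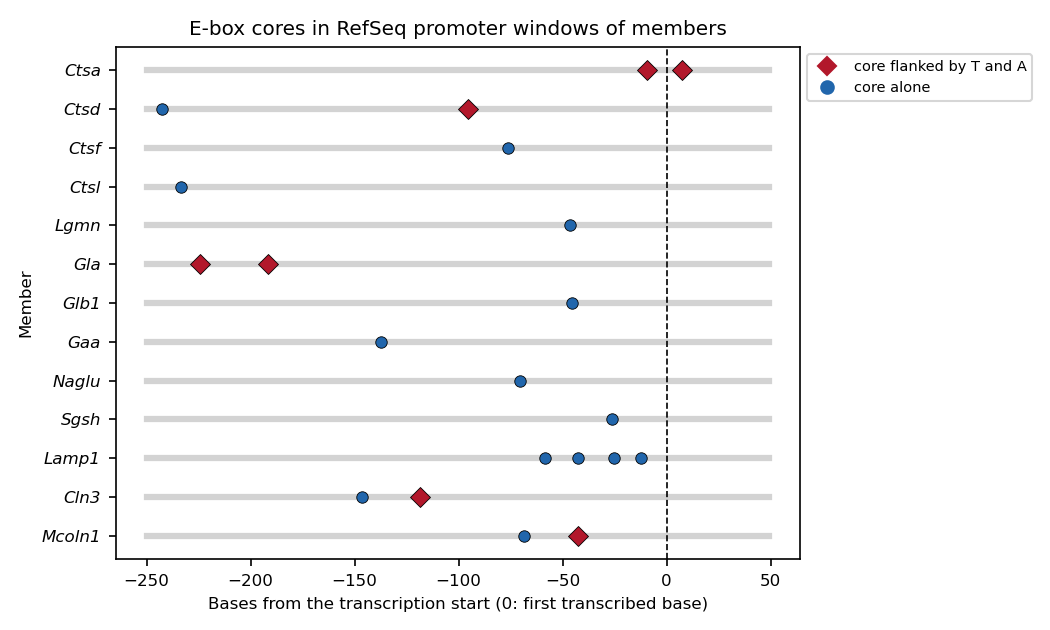
Position of each CACGTG core (circles) and of cores flanked by T and A (diamonds) in the 300-base promoter windows of the 13 members that hold 1, in bases from the transcription start. Lamp1 holds 4 cores, at -61 to -15 bases.

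Without stimulation, 9 of the 40 members were higher in KO than in WT by limma at an adjusted p under 0.05, where 2.62% of all genes tested were higher, and 3 were lower, where 2.61% of all genes were lower. The higher ones were Lgmn, Hexa, Glb1, Man2b1, Manba, Grn, Lamp1, Lamp2 and Cd63, and the lower ones Ctsc, Ctsk and Acp2. Of the 9 higher calls, 4 were left with eBayes without trend, 3 without unstimulated KO replicate 2, 3 without unstimulated WT replicate 1, 5 without unstimulated KO replicate 1 and 5 without unstimulated WT replicate 2. The median difference was 0.26 log2 units, against 0.0041 over all genes, with 35 of 40 values above 0, against 51.1% of all genes. Both KO arrays lay above both WT arrays for 27 members, an arrangement found for 23.6% of all genes. These include Tfeb, which passed the filter on dim probes only through unstimulated KO, and Ctsf, which passed it only through the KO groups. For both, the filter favours a higher value in KO. With IL-4, 5 members were higher in KO than in WT (2.42% of all genes) and 2 were lower (2.64%), with a median of 0.09 against 0.02 over all genes. That median was 0.19 without KO with IL-4 replicate 2, 0.15 without WT with IL-4 replicate 2 and 0.06 without WT with IL-4 replicate 1. The 5 higher calls numbered 1 without WT with IL-4 replicate 1, 2 without KO with IL-4 replicate 1, 2 without WT with IL-4 replicate 2, 3 without KO with IL-4 replicate 2, 3 where probes of 1 gene were averaged and 2 with eBayes without trend. KO lay above WT without overlap for 17 members, against 26.8% of all genes.

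IL-4 lowered 11 of the 40 members in KO, where 9.85% of all genes fell, and raised 0, where 9.38% rose. The falls numbered 4 without unstimulated KO replicate 2, 7 without unstimulated KO replicate 1 and 7 without KO with IL-4 replicate 2. The median change in KO was -0.23, against -0.01 over all genes, and 23 members lay lower on both IL-4 arrays than on both unstimulated arrays, against 30.4% of all genes. In WT 1 member fell, against 8.60% of all genes, and 1 rose, against 7.80%. The median change in WT was -0.09, against -0.02 over all genes, but -0.016 without WT with IL-4 replicate 1, -0.03 without unstimulated WT replicate 2, and -0.14 without either of the other WT arrays. In WT 11 members lay lower on both IL-4 arrays, against 29.4% of all genes. The difference between the 2 responses passed for 0 of 40 members by limma (against 0.122% of all genes) and for 5 at an unadjusted p under 0.05 (against 6.58% of all genes), so that the responses of single members are not shown to differ between the genotypes. Its median was -0.15 (KO minus WT), against 0.0087 over all genes, and 31 of 40 values were below 0, against 48.5% of all genes. The median was -0.23 without unstimulated WT replicate 2, but -0.11 without unstimulated WT replicate 1 or without KO with IL-4 replicate 2. The response in KO and the difference between unstimulated genotypes share the unstimulated KO arrays.

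**Figure D2:**
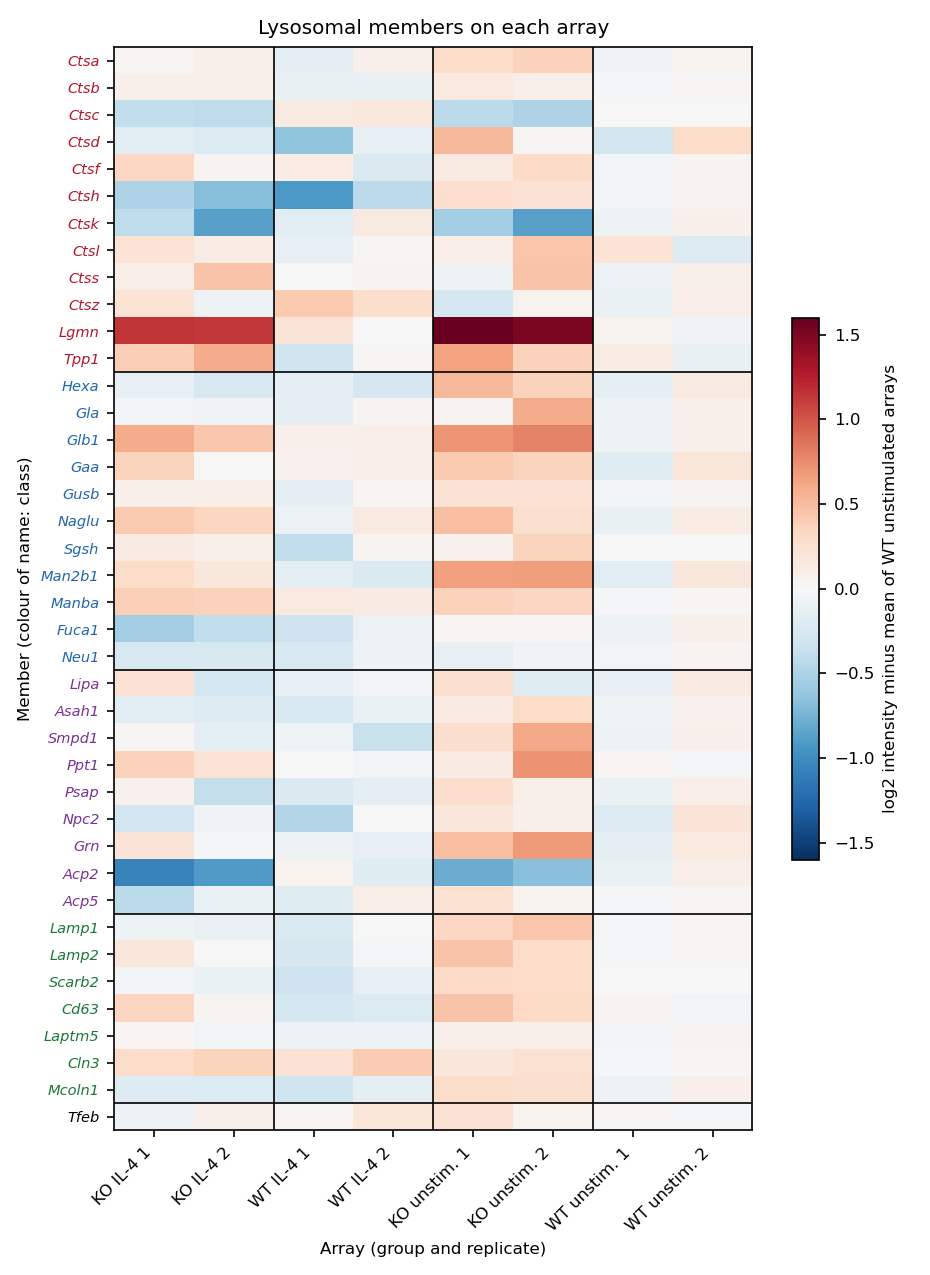
Each row is a member and each column an array; colour gives the log2 intensity after background correction minus the mean of the unstimulated WT arrays, and names are coloured by class. Lgmn stands out as higher on all 4 KO arrays, Acp2 and Ctsc as lower on them, and Ctsh as lower on all 4 IL-4 arrays.

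Markers of macrophage states and of other cells were read beside these differences. Adgre1 was higher in KO than in WT (log2 0.60 unstimulated and 0.59 with IL-4, limma adjusted p = 7.5e-04 and 7.3e-04). Cd14 was lower in KO (-0.64 and -0.55, adjusted p = 3.2e-04 and 0.00106). Lyz2, Itgam and Mertk did not pass. In a list for dendritic cells and small peritoneal macrophages, Clec4b1 was lower in KO (-0.99 and -0.63, adjusted p = 0.00131 and 0.0284). Irf4, Zbtb46 and H2-Ab1 of that list did not pass. The 7 large peritoneal macrophage markers, all above background, summed to 15293 to 16544 in unstimulated KO, against 10915 to 12862 in unstimulated WT, and to 13666 to 14474 in KO with IL-4, against 13667 to 13702 in WT with IL-4. These sums hide opposite movements. Vsig4 was higher in KO (log2 1.52 unstimulated and 1.19 with IL-4), as were Gata6 (0.74 and 0.46) and Alox15 (0.73 and 0.57). With IL-4, F5 was higher in KO (0.57) and Serpinb2 was lower (-0.87, adjusted p = 0.00277). Timd4 (-0.52 unstimulated and -0.22 with IL-4) and Icam2 (0.23 and 0.17) did not pass. Neither did F5 (0.48) and Serpinb2 (-0.37) unstimulated.

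Of 7 neutrophil markers 6 had a probe, of which 5 were above background on some array and S100a9 on 0. They summed to 1770 to 1891 in unstimulated KO, against 2408 to 2674 in unstimulated WT. With IL-4 they summed to 1282 to 1507 in KO and 1386 to 1546 in WT. S100a8 was lower in unstimulated KO than in WT (log2 -0.60, adjusted p = 0.0151) and fell with IL-4 in KO (-0.58, adjusted p = 0.00663) and in WT (-1.08, adjusted p = 8.2e-05). Of 7 T and NK cell markers 6 had a probe, of which 5 were above background on some array and Cd8a on 0. They summed to 758 to 813 in KO with IL-4, against 610 to 648 in WT with IL-4. The sums were 755 to 828 in unstimulated KO, against 639 to 725 in unstimulated WT. With IL-4, Cd3d (mean 200.5 in KO, against 124 in WT, adjusted p = 0.00144), Cd3e (log2 0.79, adjusted p = 0.00758) and Nkg7 (log2 0.60, adjusted p = 0.0203) were higher in KO than in WT. The mast cell and basophil sums overlapped, 1059 to 1406 in unstimulated KO, against 1337 to 1685 in unstimulated WT, as did those of B cells, 1942 to 2144, against 1540.0 to 2150.2, and no marker of either passed between the genotypes. In whole cultures fewer cells of a type and less RNA per cell cannot be told apart, and the part of these markers in the lysosomal differences was not tested.

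Of the 12 proteases, 1 was higher and 2 were lower in unstimulated KO than in WT (median difference 0.24), and 2 were higher and 1 lower with IL-4. Here and for the classes that follow, the shares of all genes given above are the background: 2.62% higher and 2.61% lower unstimulated, 2.42% and 2.64% with IL-4, and falls with IL-4 of 9.85% in KO and 8.60% in WT. IL-4 lowered 2 in KO (median change -0.03) and 1 in WT (-0.04). Lgmn encodes legumain, the endopeptidase that cuts after asparagine and processes several cathepsins. Its intensity was 4769.9 and 4721 in KO with IL-4, 2517 and 2208 in WT with IL-4, 6429 and 6101 in unstimulated KO, and 2287 and 2105 in unstimulated WT. All 4 KO arrays lay above all 4 WT arrays. It was 2.91-fold higher in unstimulated KO than in WT (log2 1.54 ± 0.09 SE, limma adjusted p = 3.1e-07) and 2.04-fold higher with IL-4 (log2 1.03 ± 0.09, adjusted p = 9.9e-06). Within KO, IL-4 lowered it 1.32-fold (adjusted p = 0.00662), a call that ended without unstimulated KO replicate 1 (adjusted p = 0.0570). In WT its log2 change was 0.11 ± 0.09 (adjusted p = 0.497).

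Ctsh, an aminopeptidase and the cathepsin that trims peptides from their N-terminus, had an intensity of 3833 and 3370.1 in KO with IL-4, 2868 and 4005 in WT with IL-4, 6454 and 6251 in unstimulated KO, and 5194 and 5514 in unstimulated WT. The IL-4 arrays lay below the unstimulated arrays in each genotype. IL-4 lowered Ctsh 1.78-fold in KO (log2 -0.83 ± 0.13, adjusted p = 4.7e-04) and 1.59-fold in WT (log2 -0.67 ± 0.13, adjusted p = 0.00283). The WT arrays with IL-4 lay far apart, and without WT with IL-4 replicate 1 the WT change was -0.42 (adjusted p = 0.0268). The genotypes differed by 0.25 ± 0.13 unstimulated (adjusted p = 0.376).

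Ctsc, the dipeptidyl peptidase that activates granule serine proteases of leukocytes, ran the other way from Lgmn. Its intensity was 4428 and 4414 in KO with IL-4, 6429 and 6512 in WT with IL-4, 4366 and 4130.1 in unstimulated KO, and 5763 and 5856 in unstimulated WT, with every KO array below every WT array. Ctsc was 1.37-fold lower in unstimulated KO (log2 -0.46 ± 0.08, adjusted p = 0.00271) and 1.47-fold lower in KO with IL-4 (log2 -0.56 ± 0.08, adjusted p = 6.3e-04). All 3 probes of Ctsc gave a lower value in KO, with log2 differences between -0.78 and -0.46 unstimulated and between -0.57 and -0.49 with IL-4. Ctsk, the collagen-degrading cathepsin best known from osteoclasts, was dim: 105 and 93.9 in KO with IL-4, 111 and 123 in WT with IL-4, 101 and 94.1 in unstimulated KO, and 115 and 120.4 in unstimulated WT. It was lower in unstimulated KO (log2 -0.70 ± 0.18, adjusted p = 0.0337), a value of -0.27 without background correction and -0.38 with an offset of 50. The Ctsk call ended without unstimulated KO replicate 2 (adjusted p = 0.279), unstimulated WT replicate 1 (0.0994) or unstimulated WT replicate 2 (0.222). The summed intensity of 6 osteoclast markers, which include Ctsk itself, was 573 to 588 in unstimulated KO, against 625 to 633 in unstimulated WT, with 5 of the 6 above background on some array and Calcr on 0. Apart from Ctsk, Dcstamp was lower in unstimulated KO (mean 99.4, against 129, log2 -0.90, adjusted p = 0.00119), while Acp5 (108, against 103), Ocstamp (93.6, against 96.3) and Oscar (91.9, against 94.4) did not pass. Their part in the Ctsk difference was not tested. Tpp1, the tripeptidyl peptidase of lysosomes, had 269.9 and 299 in KO with IL-4, 190.1 and 223 in WT with IL-4, 308 and 265 in unstimulated KO, and 234 and 208 in unstimulated WT. Tpp1 passed with IL-4 only, 1.56-fold higher in KO (adjusted p = 0.0224), and this call ended without KO with IL-4 replicate 2 (adjusted p = 0.187) or WT with IL-4 replicate 1 (0.188). Unstimulated, its difference was 0.50 ± 0.15 (adjusted p = 0.0728).

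The remaining cathepsins passed no test, among them those the organelle is best known for. Ctsb, a cysteine protease, had 9986 and 10065 in KO with IL-4, 8693 and 8693 in WT with IL-4, 10516 and 9915 in unstimulated KO, and 9314 and 9502 in unstimulated WT, with an IL-4 change in KO of -0.03 ± 0.07 (adjusted p = 0.854) and in WT of -0.11 ± 0.07 (adjusted p = 0.354). Its KO arrays lay above its WT arrays in each condition, by 0.12 ± 0.07 unstimulated (adjusted p = 0.506) and, once given IL-4, by 0.21 ± 0.07 (adjusted p = 0.162). Ctsd, the main aspartic protease, had 165 and 163 in KO with IL-4, 138 and 169 in WT with IL-4, 228 and 179.7 in unstimulated KO, and 157 and 204 in unstimulated WT. The duplicates of Ctsd lay wide apart, and its IL-4 change of -0.47 ± 0.21 in KO has a 95% interval of -0.93 to -0.01 (adjusted p = 0.157). Ctsl, which degrades the invariant chain of MHC class II in the thymus, had 190.0 and 182 in KO with IL-4, 163 and 174 in WT with IL-4, 181 and 211 in unstimulated KO, and 190.3 and 157 in unstimulated WT, so that its 8 arrays spanned 157 to 211. Ctss, which has that role in antigen-presenting cells of the periphery, had 222 and 265 in KO with IL-4, 212 and 216 in WT with IL-4, 203 and 266 in unstimulated KO, and 201 and 221 in unstimulated WT. For Ctsl and Ctss the 4 log2 differences lay between -0.11 and 0.28, with adjusted p of 0.440 or more.

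Ctsz, a carboxypeptidase, had a log2 change with IL-4 of 0.18 ± 0.13 in KO (adjusted p = 0.405) and 0.35 ± 0.13 in WT (adjusted p = 0.0887). Its intensity was 1642 and 1347 in KO with IL-4, 1882 and 1716 in WT with IL-4, 1185 and 1479 in unstimulated KO, and 1332 and 1525 in unstimulated WT. Ctsa, the serine carboxypeptidase that protects Glb1 and Neu1 in a complex, had 503 and 518 in KO with IL-4, 453 and 517 in WT with IL-4, 589 and 619 in unstimulated KO, and 479 and 509 in unstimulated WT, with a difference of 0.33 ± 0.11 between unstimulated KO and WT (adjusted p = 0.107). Ctsf lay at background, between 88.4 and 99.3 on the 8 arrays and above the threshold on 6.

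**Figure D3:**
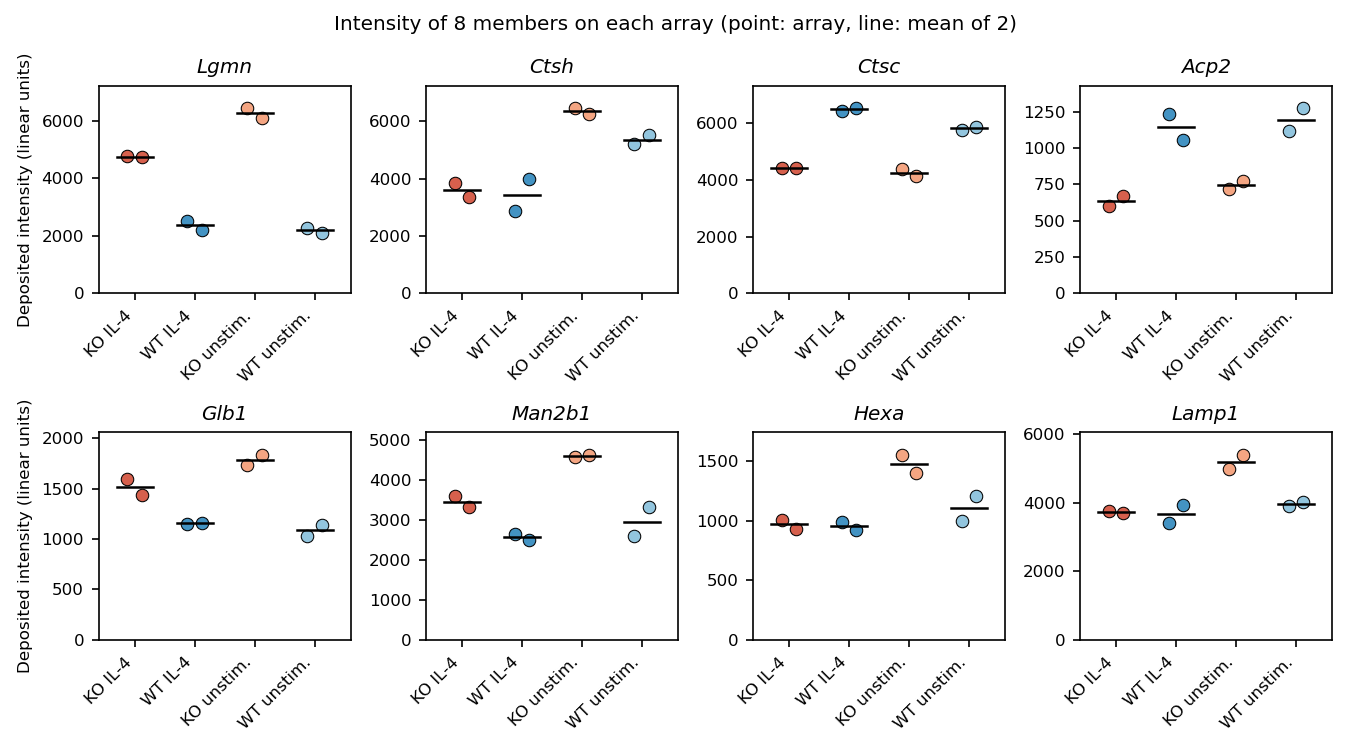
Deposited intensity (linear units, axis from 0) of 8 members on each array, with a line at the mean of each pair. Lgmn, Glb1 and Man2b1 lie higher in KO than in WT in each condition, Ctsc and Acp2 lower, and Ctsh falls with IL-4 in each genotype.

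Of the 11 glycosidases and related enzymes, 4 were higher in unstimulated KO than in WT and 0 lower, with a median difference of 0.36. With IL-4, 2 were higher and 0 lower, with a median of 0.15. IL-4 lowered 3 in KO and 0 in WT. Glb1, the beta-galactosidase that strips terminal galactose from gangliosides and keratan sulfate, had 1597 and 1441 in KO with IL-4, 1146 and 1162 in WT with IL-4, 1732 and 1834 in unstimulated KO, and 1029 and 1144 in unstimulated WT. The KO arrays lay above the WT arrays in each condition. Glb1 was 1.68-fold higher in unstimulated KO (log2 0.75 ± 0.10, adjusted p = 3.5e-04) and 1.33-fold higher with IL-4 (adjusted p = 0.0230), the second call ending without KO with IL-4 replicate 1 (adjusted p = 0.184), WT with IL-4 replicate 1 (0.109), WT with IL-4 replicate 2 (0.113) or with eBayes without trend (0.0684).

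Man2b1, the acid alpha-mannosidase of glycoprotein breakdown, had 3594 and 3325 in KO with IL-4, 2665 and 2510.2 in WT with IL-4, 4587 and 4637 in unstimulated KO, and 2595 and 3325 in unstimulated WT. It was 1.58-fold higher in unstimulated KO (log2 0.66 ± 0.11, adjusted p = 0.00220) and 1.35-fold higher with IL-4 (adjusted p = 0.0390). IL-4 lowered it 1.34-fold in KO (adjusted p = 0.0147), and its change in WT was -0.19 ± 0.11 (adjusted p = 0.291). The difference with IL-4 ended without any 1 array with IL-4 (log2 0.37 to 0.485) or without either unstimulated KO array (0.43). It also ended with eBayes without trend (adjusted p = 0.103). Averaging the probes of other genes ended it too (adjusted p = 0.0554), though Man2b1 has 1 probe and its own value did not move. The response in KO ended without KO with IL-4 replicate 2 (log2 -0.37), unstimulated KO replicate 1 (-0.43) or unstimulated KO replicate 2 (-0.415).

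Hexa, the alpha subunit of the beta-hexosaminidase that degrades ganglioside GM2, had 1009 and 935 in KO with IL-4, 994 and 923 in WT with IL-4, 1555 and 1400.0 in unstimulated KO, and 1002 and 1210.3 in unstimulated WT. The unstimulated KO pair lay above the other 6 arrays, which spanned 923 to 1210.3. IL-4 lowered Hexa 1.56-fold in KO (log2 -0.64 ± 0.11, adjusted p = 0.00121), and the change in WT was -0.22 ± 0.11 (adjusted p = 0.232). The difference between these responses was -0.42 (95% interval -0.76 to -0.08) and did not pass (adjusted p = 0.649). It was 1.36-fold higher in unstimulated KO (adjusted p = 0.0346), a call that ended without unstimulated KO replicate 1 (adjusted p = 0.241), unstimulated KO replicate 2 (0.0688), unstimulated WT replicate 1 (0.267), with eBayes without trend (0.0798) or with only the 4 arrays compared (0.0526).

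Manba, the beta-mannosidase that finishes the breakdown of N-linked glycans, had 522 and 516 in KO with IL-4, 457 and 449 in WT with IL-4, 519 and 510.3 in unstimulated KO, and 411 and 420.5 in unstimulated WT. It was 1.28-fold higher in unstimulated KO at the edge of the threshold (adjusted p = 0.0458), and this call ended when any 1 of the 8 arrays was left out (adjusted p = 0.0641 to 0.201), and also with the replicate number as a block (0.0543), with no filter on dim probes (0.0824), with eBayes without trend (0.0798) and with only the 4 arrays compared (0.0998). Fuca1, the alpha-fucosidase, lay at background: 85.6 and 88.1 in KO with IL-4, 89.1 and 93.2 in WT with IL-4, 95.7 and 95.5 in unstimulated KO, and 93.4 and 96.9 in unstimulated WT. Fuca1 passed the filter on dim probes only through the unstimulated groups, which favours a fall with IL-4. It was above the threshold on both unstimulated KO arrays and on 0 of the KO arrays with IL-4. That makes it at least 1.09-fold lower with IL-4 in KO (limma adjusted p = 0.0154). That call ended without KO with IL-4 replicate 1 (adjusted p = 0.113), unstimulated KO replicate 1 (0.0813) or unstimulated KO replicate 2 (0.0749).

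The other 6 members of this class passed no test. Gusb, the beta-glucuronidase, had 4414 and 4468 in KO with IL-4, 3793 and 4262 in WT with IL-4, 4876 and 4861 in unstimulated KO, and 4057 and 4278 in unstimulated WT, with a difference of 0.23 ± 0.09 between unstimulated KO and WT (adjusted p = 0.180). Gaa, which degrades glycogen in lysosomes, had 621 and 495 in KO with IL-4, 519 and 531 in WT with IL-4, 646 and 617 in unstimulated KO, and 444 and 559 in unstimulated WT and a difference of 0.39 ± 0.14 (adjusted p = 0.158). Naglu, an enzyme of heparan sulfate breakdown, differed by 0.37 ± 0.13 between unstimulated KO and WT (adjusted p = 0.151) and, once given IL-4, by 0.36 ± 0.13 (adjusted p = 0.164). Neu1, the lysosomal sialidase, had 1192 and 1189 in KO with IL-4, 1188 and 1335 in WT with IL-4, 1287 and 1358 in unstimulated KO, and 1373 and 1445 in unstimulated WT and was the 1 member of the class with a value below 0 in unstimulated KO against WT (-0.10 ± 0.09, adjusted p = 0.710). Gla, the alpha-galactosidase, lay between 103 and 128 on the 8 arrays and Sgsh, the heparan sulfamidase, between 89.2 and 105, so that both were near background.

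**Figure D4:**
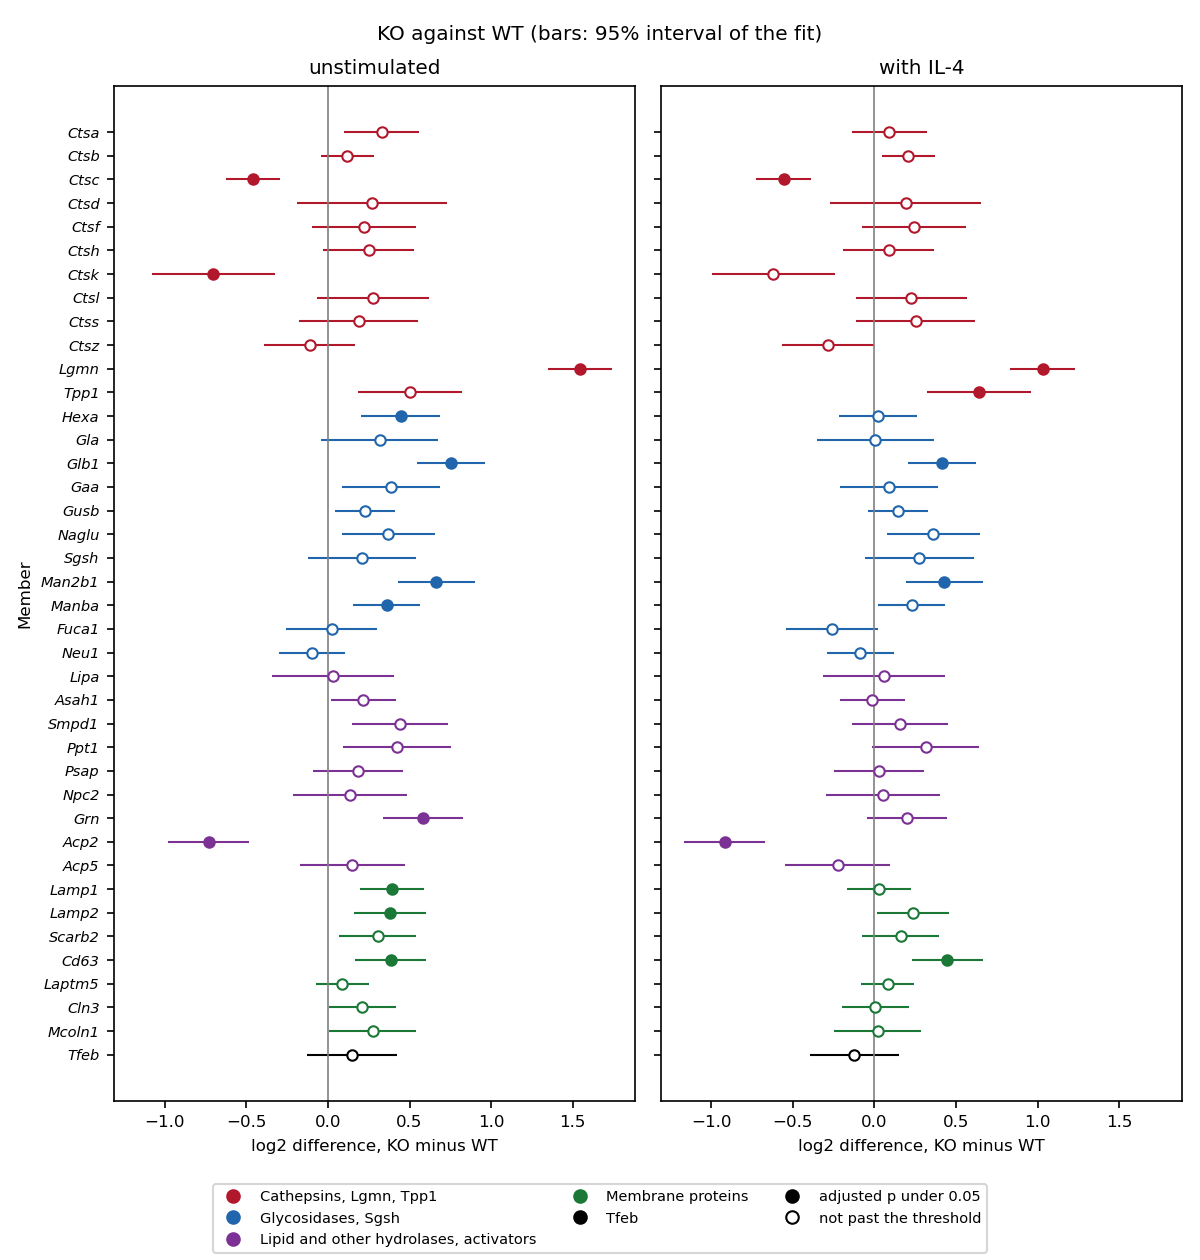
Log2 difference between KO and WT for each of the 40 members, unstimulated (left) and with IL-4 (right); bars give the 95% interval of the limma fit and filled points passed at an adjusted p under 0.05. Unstimulated, 35 of 40 points lie right of 0, and Lgmn lies farthest to the right and Acp2 farthest to the left.

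The lipid and other hydrolases with their activators had a median change with IL-4 of -0.34 in KO, where 3 of 9 fell, and of -0.10 in WT, where 0 of 9 passed. All 9 changes were below 0 in each genotype, against 51.9% of all genes in KO and 53.9% in WT. In WT, 0 of the 9 had an unadjusted p under 0.05 by limma, against 28.5% of all genes. Asah1, the acid ceramidase, had 3447 and 3389.7 in KO with IL-4, 3292 and 3610.1 in WT with IL-4, 4262 and 4769.9 in unstimulated KO, and 3708 and 4083 in unstimulated WT. It fell 1.33-fold with IL-4 in KO (log2 -0.41 ± 0.09, adjusted p = 0.00699), a call that ended without unstimulated KO replicate 2 (adjusted p = 0.0787) or with the mean of its probes (0.0943). Smpd1, the acid sphingomyelinase that releases ceramide, had 401 and 366 in KO with IL-4, 381 and 323 in WT with IL-4, 468 and 571 in unstimulated KO, and 379 and 416 in unstimulated WT. Its fall in KO was 1.42-fold (adjusted p = 0.0184) and ended without KO with IL-4 replicate 2 (adjusted p = 0.135) or unstimulated KO replicate 2 (0.195). In WT the changes were -0.18 ± 0.09 for Asah1 (adjusted p = 0.230) and -0.22 ± 0.14 for Smpd1 (adjusted p = 0.335).

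Grn encodes progranulin, a glycoprotein that is delivered to lysosomes and cut there into granulins. Its intensity was 6202 and 5303 in KO with IL-4, 5094 and 4924 in WT with IL-4, 7455 and 8592 in unstimulated KO, and 4829.9 and 5965 in unstimulated WT, and the unstimulated KO pair was the highest. Grn was 1.50-fold higher in unstimulated KO than in WT (log2 0.58 ± 0.11, adjusted p = 0.00721) and fell 1.40-fold with IL-4 in KO (log2 -0.49 ± 0.11, adjusted p = 0.00826). The first call ended without unstimulated KO replicate 2 (adjusted p = 0.0972) or unstimulated WT replicate 1 (0.103), and the second without KO with IL-4 replicate 2 (adjusted p = 0.0973) or unstimulated KO replicate 2 (0.0914). With IL-4, KO and WT differed by 0.20 ± 0.11 (adjusted p = 0.424).

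Acp2, the acid phosphatase long used to mark lysosomes, was lower in KO. It had 602 and 668 in KO with IL-4, 1232 and 1053 in WT with IL-4, 716 and 772 in unstimulated KO, and 1115 and 1273 in unstimulated WT, and every KO array lay below every WT array. Acp2 was 1.66-fold lower in unstimulated KO (log2 -0.73 ± 0.11, adjusted p = 0.00156) and 1.89-fold lower in KO with IL-4 (log2 -0.92 ± 0.11, adjusted p = 2.3e-04). The IL-4 change was -0.25 ± 0.11 in KO (adjusted p = 0.149) and -0.07 ± 0.11 in WT (adjusted p = 0.756). Acp5, the tartrate-resistant phosphatase of osteoclasts and some macrophages, lay between 93.7 and 110.4 on the 8 arrays, and its IL-4 change in KO of -0.42 ± 0.15 did not pass (adjusted p = 0.0671).

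Psap, the precursor of the saposins that present lipids to hydrolases, had 9577 and 7021 in KO with IL-4, 7793 and 8312 in WT with IL-4, 11097 and 9711 in unstimulated KO, and 8523 and 9810.4 in unstimulated WT. Its change in KO was -0.34 ± 0.13 (adjusted p = 0.0807). Npc2, the soluble cholesterol carrier, had 454 and 527 in KO with IL-4, 411 and 547 in WT with IL-4, 609 and 575 in unstimulated KO, and 482 and 617 in unstimulated WT and a change of -0.31 ± 0.16 in KO (adjusted p = 0.215) and -0.23 ± 0.16 in WT (adjusted p = 0.385). Lipa, the acid lipase that frees cholesterol from its esters, had values of -0.09 to 0.06 in the 4 comparisons, and its duplicates differed by more than its groups. Ppt1, which removes palmitate from proteins, differed by 0.42 ± 0.15 between unstimulated KO and WT (adjusted p = 0.159), where its KO arrays had 365 and 513.

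All 7 membrane proteins measured had both unstimulated KO arrays above both WT arrays, as 23.6% of all genes did, and 3 of them passed, as 2.62% of all genes did. Lamp1, an abundant glycoprotein of the lysosomal membrane with the 4 E-box cores shown above, had 3773 and 3701 in KO with IL-4, 3407 and 3943 in WT with IL-4, 4991 and 5407 in unstimulated KO, and 3917 and 4037 in unstimulated WT. It was 1.31-fold higher in unstimulated KO (log2 0.39 ± 0.09, adjusted p = 0.0224) and fell 1.40-fold with IL-4 in KO (log2 -0.48 ± 0.09, adjusted p = 0.00209). Its change in WT was -0.12 ± 0.09 (adjusted p = 0.437), and KO and WT with IL-4 differed by 0.03 ± 0.09 (adjusted p = 0.910). The genotype call ended without unstimulated KO replicate 1 (adjusted p = 0.0510), unstimulated KO replicate 2 (0.187), unstimulated WT replicate 1 (0.134), unstimulated WT replicate 2 (0.0939) or with eBayes without trend (0.0869).

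Lamp2, its relative that also serves chaperone-mediated autophagy and autophagosome fusion, had 3526 and 3154 in KO with IL-4, 2609 and 3089.5 in WT with IL-4, 4278 and 3833 in unstimulated KO, and 3089.5 and 3169.8 in unstimulated WT. It was 1.30-fold higher in unstimulated KO with an adjusted p of 0.0499, and this call ended in 10 of 18 alternatives, 6 of which left out an array (adjusted p = 0.0507 to 0.311 in these 6). Cd63, a tetraspanin of late endosomes and lysosomes, had 7276 and 5952 in KO with IL-4, 4734 and 4964 in WT with IL-4, 7884 and 7142 in unstimulated KO, and 5952 and 5574 in unstimulated WT. Cd63 was 1.31-fold higher in unstimulated KO (adjusted p = 0.0420) and 1.36-fold higher with IL-4 (adjusted p = 0.0194). The first ended without unstimulated KO replicate 1 (adjusted p = 0.269), unstimulated KO replicate 2 (0.0768), unstimulated WT replicate 1 (0.108), unstimulated WT replicate 2 (0.254), with the mean of its probes (0.298) or with eBayes without trend (0.127), and the second without KO with IL-4 replicate 1 (adjusted p = 0.191), WT with IL-4 replicate 1 (0.109), WT with IL-4 replicate 2 (0.0691), with the mean of its probes (0.211) or with eBayes without trend (0.0741).

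Mcoln1, the calcium channel of late endosomes and lysosomes, had 148 and 148 in KO with IL-4, 143 and 152 in WT with IL-4, 183 and 180.1 in unstimulated KO, and 156 and 167 in unstimulated WT. It fell 1.40-fold with IL-4 in KO (adjusted p = 0.0132), or by 0.29 log2 units without background correction. Scarb2, the receptor that carries glucocerebrosidase to lysosomes, had 294 and 284 in KO with IL-4, 252 and 279.7 in WT with IL-4, 357 and 355 in unstimulated KO, and 298 and 302 in unstimulated WT and fell 1.30-fold in KO (adjusted p = 0.0267). The Mcoln1 call ended without KO with IL-4 replicate 1 (adjusted p = 0.0592), KO with IL-4 replicate 2 (0.0685), unstimulated KO replicate 1 (0.0745) or unstimulated KO replicate 2 (0.0577), and the Scarb2 call without KO with IL-4 replicate 1 (adjusted p = 0.0735), KO with IL-4 replicate 2 (0.152), unstimulated KO replicate 1 (0.112) or unstimulated KO replicate 2 (0.103). In WT the changes were -0.23 ± 0.12 (adjusted p = 0.239) and -0.23 ± 0.11 (adjusted p = 0.181).

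Cln3, a membrane protein lost in a childhood neuronal storage disease, was the member that rose with IL-4 in WT. It had 1036 and 1078 in KO with IL-4, 996 and 1115 in WT with IL-4, 961 and 999 in unstimulated KO, and 848 and 863 in unstimulated WT, the IL-4 arrays lying above the unstimulated arrays in each genotype. The rise in WT was 1.25-fold (log2 0.32 ± 0.10, adjusted p = 0.0323) and the change in KO 0.12 ± 0.10 (adjusted p = 0.456). The call ended without WT with IL-4 replicate 2 (adjusted p = 0.251), unstimulated WT replicate 1 (0.124), unstimulated WT replicate 2 (0.0869), with no filter on dim probes (0.0542), with eBayes without trend (0.0712) or with only the 4 arrays compared (0.0622). Laptm5, a lysosomal protein of blood cells, had 12747 and 12104 in KO with IL-4, 11736 and 11736 in WT with IL-4, 13277 and 13277 in unstimulated KO, and 12104 and 12910.5 in unstimulated WT, and its 4 log2 differences lay between -0.10 and 0.09.

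Tfeb itself lay at background, with 90.5 and 93.7 in KO with IL-4, 92.9 and 96.04 in WT with IL-4, 96.98 and 93.3 in unstimulated KO, and 92.6 and 91.8 in unstimulated WT. It was above the threshold on 4 of 8 arrays, and it passed no test, with a change of -0.15 ± 0.13 with IL-4 in KO (adjusted p = 0.464) and of 0.11 ± 0.13 in WT (adjusted p = 0.619), and a difference between these of -0.27 ± 0.18 (adjusted p = 0.854). Its second probe, which did not pass the filter, had values of opposite sign in all 4 comparisons.

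**Figure D5:**
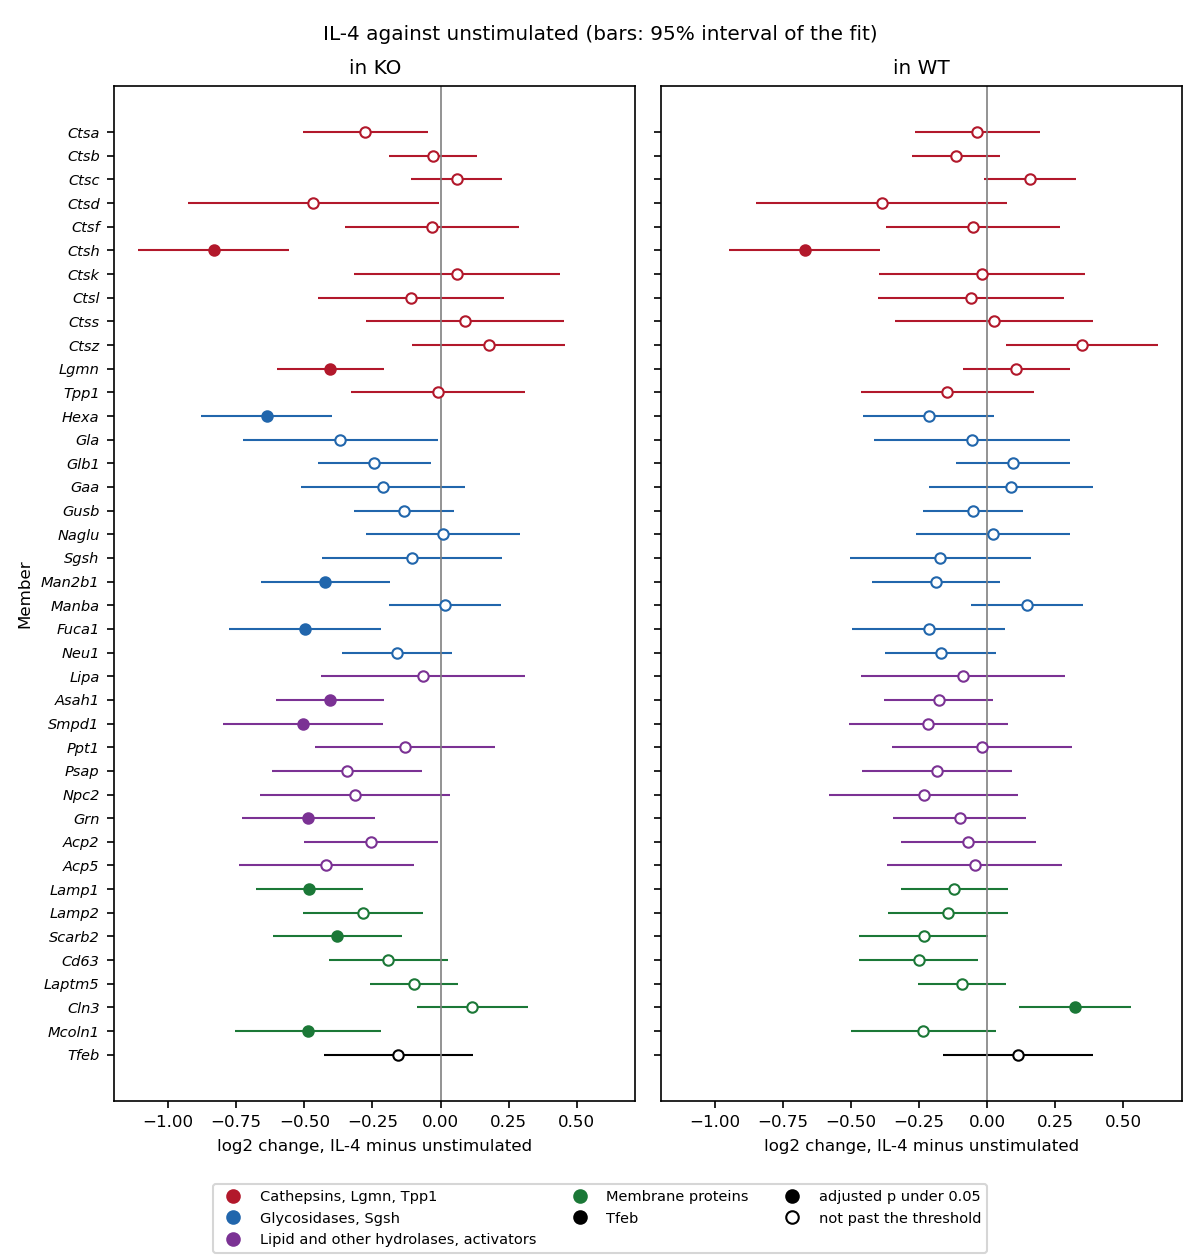
Log2 change with IL-4 against unstimulated cells for each of the 40 members, in KO (left) and in WT (right); bars give the 95% interval of the limma fit and filled points passed at an adjusted p under 0.05. In KO 11 points are filled, all left of 0, and in WT Ctsh is filled left of 0 and Cln3 right of 0.

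Other genes of the pathway were read from lists of non-members. Of 29 further lysosomal genes tested, 6 were higher in unstimulated KO and 0 lower, with a median of 0.16, against 2.62% and 2.61% of all genes and a median of 0.0041. With IL-4, 3 were higher and 1 lower in KO, against 2.42% and 2.64% of all genes. IL-4 raised 3 and lowered 5 in KO, against 9.38% and 9.85% of all genes, and raised 3 and lowered 6 in WT, against 7.80% and 8.60%. Cd164, a sialomucin of endosomes and lysosomes, rose 1.98-fold in KO and 2.15-fold in WT. Pla2g15, the lysosomal phospholipase, rose 1.57-fold in KO (adjusted p = 1.4e-04) and 2.17-fold in WT (adjusted p = 1.7e-06). Slc17a5, which exports sialic acid, was 1.58-fold higher in unstimulated KO (adjusted p = 0.00792) and 1.77-fold higher with IL-4 (adjusted p = 0.00179). Arsg, an arylsulfatase, was 1.74-fold higher in unstimulated KO than in WT (adjusted p = 0.00591) and fell 1.71-fold with IL-4 in KO (adjusted p = 0.00269) and 1.43-fold in WT (adjusted p = 0.0331).

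Of 7 genes for the mannose 6-phosphate tag and for sorting, 0 passed between the genotypes. Of all genes, 2.62% were higher and 2.61% lower in unstimulated KO, and 2.42% and 2.64% with IL-4. With so few genes, a count of 0 is near these shares. With IL-4, 1 fell in each genotype, against 9.85% of all genes in KO and 8.60% in WT. It was Sort1, which encodes sortilin, the receptor that carries progranulin and prosaposin: 2.42-fold lower in KO (adjusted p = 6.3e-04) and 2.38-fold lower in WT (adjusted p = 9.0e-04). Its mean intensity was 423 in KO with IL-4, against 923 in unstimulated KO, and 435 in WT with IL-4, against 948 in unstimulated WT. Of 4 cathepsin inhibitors, Cst7, the cystatin that regulates Ctsc, rose 1.82-fold in KO (adjusted p = 0.00192) and 2.35-fold in WT (adjusted p = 1.6e-04) from levels near background (95.7 in unstimulated KO and 99.8 in unstimulated WT). Cstb fell in KO (log2 -0.27 ± 0.08), and its change in WT of -0.22 ± 0.08 did not pass (adjusted p = 0.0646). Stfa1 fell in WT and was lower in unstimulated KO than in WT, and its change with IL-4 in KO was -0.08 ± 0.14 (adjusted p = 0.779). No cathepsin inhibitor passed for the difference between the responses.

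Of 11 MiT/TFE factors and genes of the nutrient switch, 2 were higher in unstimulated KO and 0 lower, against 2.62% and 2.61% of all genes. With IL-4, 0 passed between the genotypes, against 2.42% of all genes higher and 2.64% lower in KO. IL-4 raised 1 and lowered 2 in each genotype, against 9.38% and 9.85% of all genes in KO and 7.80% and 8.60% in WT. Flcn, the folliculin that with Rragc and Rragd controls where TFEB resides, was 1.44-fold higher (log2 0.52 ± 0.10, adjusted p = 0.00667). Tfec was above background on 0 unstimulated arrays, so it passed the filter on dim probes only through the groups with IL-4, which favours a rise. It averaged 90.4 in unstimulated KO and 100.2 in KO with IL-4, at least 1.25-fold higher (adjusted p = 0.0293). Its change in WT was 0.27 ± 0.14 (adjusted p = 0.235). IL-4 raised Mitf in WT (log2 0.48 ± 0.14, adjusted p = 0.0289), while its change in KO was 0.24 ± 0.14 (adjusted p = 0.271). Lamtor4, a subunit of the Ragulator complex on the lysosomal surface, fell with IL-4 in each genotype (log2 -0.41 ± 0.08 in KO and -0.64 ± 0.08 in WT). No gene of this list passed for the difference between the responses.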

How the data were processed

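The deposited values were intensities of Illumina Mouse Ref-8 bead arrays on a linear scale, which the authors had normalized between arrays by quantiles as far as the values show. Per the submitters' processing notes, GenomeStudio was used. A second deposited table was not used, since the headings of its 8 signal columns match no sample label. From the deposited intensities, background was corrected by normexp with an offset of 16, and log2 was taken. A probe was kept where both arrays of at least 1 group lay above a threshold of 93.1 to 93.3 (mode of the low values plus 1.645 SD), and the brightest probe stood for its gene. Group means over all 8 arrays were fitted with limma 3.58.1 in R 4.3.3 (lmFit, eBayes with trend), with Benjamini-Hochberg adjustment over 9875 genes and a threshold of 0.05. The number of arrays, 2 a group, limits the precision.

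The members and lists were chosen with earlier results of these data known. Full statistics were given for the 3 largest changes per class past the threshold, with Tfeb, Lamp1, Lamp2, Ctsb, Ctsd, Ctsl and Ctss, and at most 4 genes of each other list. Other members were described beyond that rule so that each is accounted for. Alternatives changed the background correction, filter, choice of probe, normalization, variance prior, replicate block and arrays in the fit.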

Additional observations from a re-analysis of the deposited data

How the results depend on the processing

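Of 32 calls on single members, 12 stayed past the threshold under all 18 alternatives that could be fitted, 20 did not under at least 1, and 0 turned direction. The 12 were Ctsh with IL-4 in each genotype, Hexa and Lamp1 with IL-4 in KO, Lgmn, Ctsc and Acp2 in both comparisons of KO with WT, and Glb1 and Man2b1 in unstimulated KO against WT. Members called with IL-4 in WT numbered 2, against 1 with no filter on dim probes, 1 with eBayes without trend, and 1 to 2 when 1 array was left out. With IL-4 in KO they numbered 11, against 4 to 11 when 1 array was left out. In unstimulated KO against WT they numbered 12, against 7 with eBayes without trend and 5 to 11 when 1 array was left out. In KO against WT with IL-4 they numbered 7, against 4 with eBayes without trend and 3 to 7 when 1 array was left out. The difference between responses gave 0 called members in each of these fits. Leaving out an array lowers the residual degrees of freedom, and the lone array left in a group is assumed to vary like the others. The cause of the other changes was not tested. Dim members (Ctsf, Fuca1, Sgsh, Tfeb) are limited by their signal over background.

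With the replicate number as a replicate block, the called members numbered 2 with IL-4 in WT, 11 with IL-4 in KO, 11 in unstimulated KO against WT, 7 in KO against WT with IL-4 and 0 for the difference between responses. Manba in unstimulated KO against WT was the member no longer called (adjusted p = 0.0543). Deviations of same-numbered arrays from their group means correlated at 0.23 between the KO groups and 0.15 between the WT groups. Between groups of different genotype the correlation was -0.09 to 0.0053. Whether the numbers pair cultures within a genotype was not tested. The block cannot show it, since it fits the same replicate effect to both genotypes.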

Other observations

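Lamp2 has 4 probes, annotated in pairs to different RefSeq transcripts, a split looked at after the values were seen. For unstimulated KO against WT the pair that includes the brightest probe gave log2 differences of 0.38 and 0.15, and the other pair 0.67 and 0.61. With IL-4 in KO the first pair changed by -0.29 and -0.08 and the other pair by -0.34 and -0.42. The difference between the pairs was not tested.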
